A study of Mus musculus with 4 samples.

Results

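The 33 genes described here encode chaperones, folding enzymes, translocation and degradation factors of the endoplasmic reticulum (ER) and the sensors and transcription factors of the unfolded protein response (UPR). They were chosen by name with earlier results of these data known, so counts of calls among them describe the set and do not test it. All 33 symbols had a row among the 31053 genes of the count matrices. They passed the filter on low counts, which left 13869 genes for testing. Efferocytosis is the engulfment of apoptotic cells, and the comparison asks how BM macrophages that had taken up apoptotic prostate cancer cells differed from those that had not. The macrophages came from the bone marrow of male C57BL/6J mice and were grown in M-CSF, the growth factor that drives macrophage differentiation. The age of the mice was 4 to 6 weeks in the methods and 4 weeks in the figure legend on the single-cell work. Efferocytic BM macrophages were co-cultured for 16 to 18 h with UV-killed RM1 cells, a prostate cancer line from the same mouse strain, which carried the dye CFSE, and were sorted as F4/80+CFSE+ cells. Non-efferocytic BM macrophages were sorted for F4/80 only. The paper calls them non-engulfing in 1 place and macrophages alone in another, so it is unclear whether they were kept with RM1 cells. If they were alone, exposure to RM1 cells and engulfment cannot be told apart. Single-cell RNA sequencing gave 1 library of each group in Experiment 1 and 1 in Experiment 2, so that each group had n = 2 libraries. The methods state at least 3 independent mice a group for all work with these macrophages but not how mice map to the 2 libraries of a group. The p-values thus measure how the change differed between the 2 experiments, with shifts shared by both libraries of an experiment taken out. Whether that is a spread between mice is unknown.

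Secreted and membrane proteins enter the ER through a channel in its membrane, are folded there by chaperones and disulphide isomerases, and are returned to the cytosol for degradation when folding fails. Unfolded protein in the ER activates 3 sensors: IRE1 (encoded by Ern1), which splices the mRNA of the transcription factor XBP1, ATF6, which is cut in the Golgi to release a transcription factor, and the kinase PERK, which slows translation and induces ATF4 and CHOP (encoded by Ddit3). XBP1 and ATF6 are known to induce chaperone genes through the ER stress response element (ERSE) in their promoters. In macrophages many secreted cytokines, surface receptors and lysosomal enzymes pass through the ER, though not every secreted cytokine does.

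A barcode counted as a cell when it held 200 or more genes, 1000 or more UMIs (unique molecular identifiers, 1 per captured RNA molecule) and no more than 10% mitochondrial UMIs. There were 6695 to 13411 cells in a library, which held 101216659 to 155224183 UMIs, and a count of 0 would allow a level of up to 0.0296 UMIs per 1000000 (CPM) in the shallowest library, for counting error only. The cells of the efferocytic libraries were deeper, with medians of 17171 and 17475.5 UMIs against 11146 and 9600 in non-efferocytic ones. Of Experiment 2, the non-efferocytic library was unlike the others in holding 36048 barcodes of 500 to under 1000 UMIs, against 1048 to 2046 elsewhere, and it shared 118 cell barcodes with the efferocytic library of its experiment where independent draws would give 16.59. At least 3 of 8 macrophage markers with a UMI, and under 0.1% of UMIs on markers of other cell types, were found in 91.1% to 97.6% of cells. Markers did move with the groups: the 8 macrophage markers summed to 31298 to 36350 CPM in the non-efferocytic and 21744 to 29150 CPM in efferocytic libraries, with 1 called higher and 5 lower, and the 9 neutrophil-lineage markers to 3047 to 3339 CPM and 705 to 953 CPM, all 9 called lower. The 7 fibroblast markers summed to 147 and 122 CPM in the non-efferocytic and 47.1 and 52.7 CPM in the efferocytic libraries, with 5 called lower and 0 higher by edgeR. The study describes the RM1 line as fibroblast-like, but with no library of RM1 cells, whether that line expresses these markers was not tested. Of 8 cycling-cell markers 4 were higher and 1 lower (204 to 208 CPM against 213 to 282 CPM in sum), and of 3 dendritic-cell markers tested 2 were lower, with all 6 of that list under 1 CPM in every library. The 7 epithelial markers summed to 0.148 and 9.40 CPM in the non-efferocytic and 0.0880 and 8.03 CPM in the efferocytic libraries, with Epcam, Cdh1, Krt5 and Krt14 under 1 CPM in every library. RNA from engulfed RM1 cells and RNA of the macrophage that engulfed them share a barcode and cannot be told apart in these counts.

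Of the 29 members with a promoter in the RefSeq table (250 bases before to 50 after the start, GRCm38.p6; Atf6, Derl1, Hyou1 and Manf were not in it), 10 held the ERSE on either strand, which is CCAAT, 9 bases of any letter and CCACG. They were Calr, Canx, Creld2, Derl3, Dnajc3, Ero1lb, Hsp90b1, Hspa5, Pdia6 and Syvn1, which is 34.5% of the members searched. Counted by gene, 37 of the 27025 genes in the table (0.137%) held these letters, and by promoter 39 of 32851 (0.119%). The ERSE is known from promoters of chaperone genes, and the members were chosen as genes of this kind, so the excess is no test. The related ERSE-II, ATTGG, 1 base of any letter and CCACG, occurred in Herpud1 and Dnajb11, neither of which held an ERSE, and in 0.0365% of all promoters. The stretches shown are those of the 4 members with an ERSE that rose most, Calr, Pdia6, Hspa5 and Hsp90b1, and of members that hold a motif but did not rise, Ero1lb, Derl3 and Herpud1. Each runs 5′ to 3′ on the strand of its gene, and the capitals mark the motif, which reads CGTGG to ATTGG where it lies on the other strand.
Hspa5 (ERSE, chr2:34771984-34772083, + strand): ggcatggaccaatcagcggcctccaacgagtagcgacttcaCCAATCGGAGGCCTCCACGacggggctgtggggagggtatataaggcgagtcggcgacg
Calr (ERSE, chr8:84847035-84847134, - strand): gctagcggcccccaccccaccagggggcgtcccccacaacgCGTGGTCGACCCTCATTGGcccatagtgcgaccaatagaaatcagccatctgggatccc
Pdia6 (ERSE, chr12:17266450-17266549, + strand): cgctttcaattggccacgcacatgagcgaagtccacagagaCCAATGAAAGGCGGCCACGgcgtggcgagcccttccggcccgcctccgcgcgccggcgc
Hsp90b1 (2 ERSE, chr10:86705533-86705656, - strand): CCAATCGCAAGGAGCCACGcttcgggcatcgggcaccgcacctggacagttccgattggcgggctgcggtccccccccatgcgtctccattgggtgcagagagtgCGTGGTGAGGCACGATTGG
Ero1lb (ERSE, chr13:12565641-12565740, + strand): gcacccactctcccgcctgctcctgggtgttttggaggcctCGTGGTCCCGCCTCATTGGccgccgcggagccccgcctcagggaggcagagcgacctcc
Derl3 (ERSE, chr10:75893201-75893300, + strand): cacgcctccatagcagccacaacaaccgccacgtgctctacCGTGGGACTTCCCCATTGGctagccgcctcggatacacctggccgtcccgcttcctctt
Herpud1 (ERSE-II, chr8:94386329-94386428, + strand): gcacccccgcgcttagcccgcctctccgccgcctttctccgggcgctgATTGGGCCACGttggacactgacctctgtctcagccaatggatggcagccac

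Most members were higher in efferocytic BM macrophages. Of the 33, 27 rose, 3 fell (Herpud1, Ern1 and Ppp1r15a) and 3 passed in neither direction (Ero1lb, Derl3 and Ddit3) by edgeR's quasi-likelihood test on UMIs summed per library, at an adjusted p under 0.05. Over all genes tested, 38.9% were called, 19.9% higher and 19.0% lower. The median log2 fold change, which here and below is that of efferocytic against non-efferocytic libraries with the experiment as a block, was 0.65 over the members and -0.02 over all genes tested. All members but Derl3, at 7 to 22 UMIs a library, held at least 877 UMIs in every library, and among tested genes that averaged 10 CPM or more the median was 0.09, with 29.9% called higher and 14.5% lower. The CPM of the 2 groups did not overlap for 28 members that were higher and 4 that were lower in efferocytic libraries, and overlapped for Ddit3 alone. Groups that did not overlap made up 22.2% of all genes tested in the higher and 44.7% in the lower direction. In macrophage-marker cells alone, defined by the marker rule above, 26 members rose and 3 fell, where 18.3% of all 13189 genes tested were called higher and 17.6% lower, and their median was 0.62. The part of the marker lists that moved in the values of all cells was otherwise not tested.

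Together the members took 0.308% and 0.305% of the UMIs of non-efferocytic cells in Experiments 1 and 2 and 0.484% and 0.493% of those of efferocytic cells. Most of the added UMIs were those of folding genes. The 17 folding members (chaperones, their cofactors, disulphide isomerases and oxidases) summed to 1708 and 1630 CPM in the non-efferocytic and 3096 and 3113 CPM in the efferocytic libraries, 16 of them rose, and their median log2 fold change was 0.89. For the 9 degradation members it was 0.43, and for the 5 sensors and transcription factors 0.14.

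**Figure D1:**
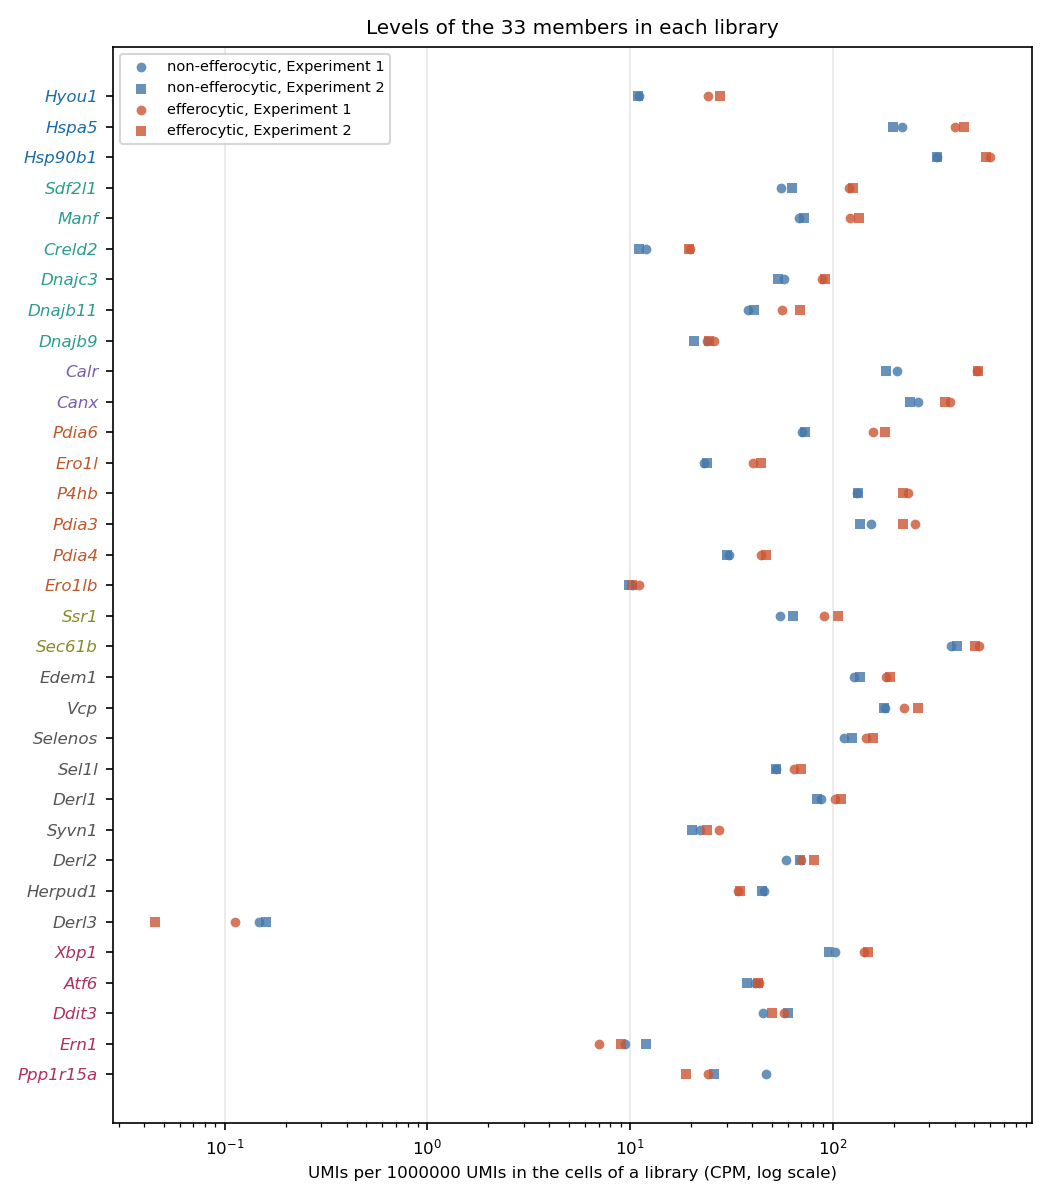
Level of each of the 33 genes in each library, in UMIs per 1000000 UMIs of the library's cells on a log axis, with names coloured by role and ordered within a role by fold change; blue points are non-efferocytic and orange points efferocytic libraries, circles Experiment 1 and squares Experiment 2. Orange points lie to the right of both blue points for 28 genes and to the left for 4, and Ddit3 is the gene whose groups overlap.

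Among the lumenal chaperones, Hspa5 encodes BiP, the HSP70 of the ER, which binds unfolded chains and holds the sensors inactive. Hspa5 (ENSMUSG00000026864, mm10 chr2:34771970-34777547) stood at 220.5 and 199.6 CPM in the non-efferocytic libraries of Experiments 1 and 2 and at 400.4 and 447 CPM in the efferocytic ones. Both efferocytic libraries were far above both non-efferocytic ones, and the log2 fold change was 1.12 ± 0.105 (SE; edgeR adjusted p = 0.000253). Per cell, the mean was 2.69 and 2.06 UMIs of Hspa5 in non-efferocytic and 7.48 and 8.25 UMIs in the efferocytic libraries, a wider gap than in CPM since efferocytic cells held more UMIs in all. Hsp90b1, the HSP90 of the ER (GRP94), went from 327 and 326 CPM to 599 and 568 CPM. Its non-efferocytic libraries lay close together (SD 0.950 CPM), and the log2 fold change was 0.94 ± 0.106 (edgeR adjusted p = 0.000529). Hyou1 encodes GRP170, which exchanges the nucleotide of BiP. It was the lowest of the 3 in UMIs, at 11.1 and 10.9 CPM in the non-efferocytic and 24.3 and 27.7 CPM in the efferocytic libraries, and its log2 fold change was 1.35 ± 0.0846 (edgeR adjusted p = 6.08e-05).

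All 6 co-chaperones and secreted cofactors rose, though not by the same amount. Sdf2l1, which works with the product of Dnajb11 in the BiP cycle, was at 55.6 and 63.2 CPM in the non-efferocytic and 121 and 125 CPM in the efferocytic libraries (log2 fold change 1.16 ± 0.0889, edgeR adjusted p = 0.000124). Manf, a secreted regulator of BiP, was at 68.2 and 72.5 CPM and at 121 and 135 CPM (0.97 ± 0.0810). The gene model of Manf overlaps Rbm15b on the same strand, so that their reads may be shared. Creld2, a secreted UPR target, was at 11.9 and 11.1 CPM and at 19.7 and 19.6 CPM (0.88 ± 0.0822). Dnajc3, or p58IPK, which brings substrates to BiP, was at 57.3 and 53.5 CPM and at 88.2 and 91.4 CPM (0.80 ± 0.0785). For these 4 genes no efferocytic value came near a non-efferocytic one. In cells of 10000 to 20000 UMIs, where the groups are closer in depth, the log2 fold changes of Sdf2l1 and Manf were smaller, 0.74 and 0.64, and that of Dnajb11 was 0.48, and these calls held there. The other two J-domain proteins stimulate the ATPase of BiP. Dnajb11 was at 38.3 and 41.0 CPM and at 56.2 and 69.0 CPM (0.76 ± 0.0770). Dnajb9, which also returns IRE1 to its inactive state, was at 23.9 and 20.8 CPM and at 26.0 and 24.6 CPM, with a log2 fold change of 0.29 ± 0.0774 (edgeR adjusted p = 0.0208). The groups of Dnajb9 were separated by less than the spread within the non-efferocytic group (SD 2.19 CPM). Its call was lost in 5 of 12 alternative settings with all libraries, among them library totals (log2 fold change 0.18). In cells of 10000 to 20000 UMIs Dnajb9 was at 0.38, and the difference between the changes of Dnajb11 and Dnajb9 was not tested.

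The lectin chaperones hold glycoproteins until their sugars are trimmed. Calr (calreticulin, ENSMUSG00000003814, chr8:84841850-84846934) showed the largest fold of all members, 2.86-fold, with 207 and 184 CPM in the non-efferocytic and 517 and 519 CPM in the efferocytic libraries (log2 fold change 1.51 ± 0.101, edgeR adjusted p = 7.23e-05). In cells of 10000 to 20000 UMIs Hyou1 was above it, with log2 fold changes of 1.36 for Hyou1 and 1.31 for Calr. A pseudogene named after Calr is annotated, and reads of near-identical copies may be split or lost. Its membrane-bound relative Canx (calnexin) was at 265 and 241 CPM and at 378 and 358 CPM (0.65 ± 0.0960, edgeR adjusted p = 0.00175).

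Of the 6 disulphide isomerases and oxidases, 5 rose. Pdia6, an isomerase found in complexes with BiP, was at 70.7 and 72.9 CPM in the non-efferocytic and 159 and 182 CPM in the efferocytic libraries (log2 fold change 1.35 ± 0.0852, edgeR adjusted p = 6.14e-05). P4hb, the classical protein disulphide isomerase, was at 133 CPM in both non-efferocytic libraries and at 235 and 221 CPM in efferocytic ones (0.89 ± 0.0936). For both, the efferocytic libraries were well above the non-efferocytic ones. Pdia3 (ERp57), the partner of calreticulin and calnexin, was at 154 and 136 CPM and at 255 and 223 CPM (0.83 ± 0.0907). Pdia4 (ERp72) was at 30.7 and 30.0 CPM and at 44.4 and 46.9 CPM (0.70 ± 0.0742). Oxidases recharge these enzymes. Ero1l, which encodes ERO1α and is known as hypoxia-inducible, was at 23.3 and 23.9 CPM and at 40.4 and 44.3 CPM (0.95 ± 0.0748, edgeR adjusted p = 0.000134). Ero1lb, which encodes ERO1β, was at 10.2 and 9.92 CPM in the non-efferocytic and 11.1 and 10.3 CPM in the efferocytic libraries. It passed in neither direction (0.19 ± 0.0954, edgeR adjusted p = 0.149), while scaled to UMIs per cell it was called higher (0.81, edgeR adjusted p = 0.00919). That scaling called 49.9% of all genes tested higher, with a median log2 fold change of 0.60 over all of them. The difference between the changes of the 2 oxidases was not tested.

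**Figure D2:**
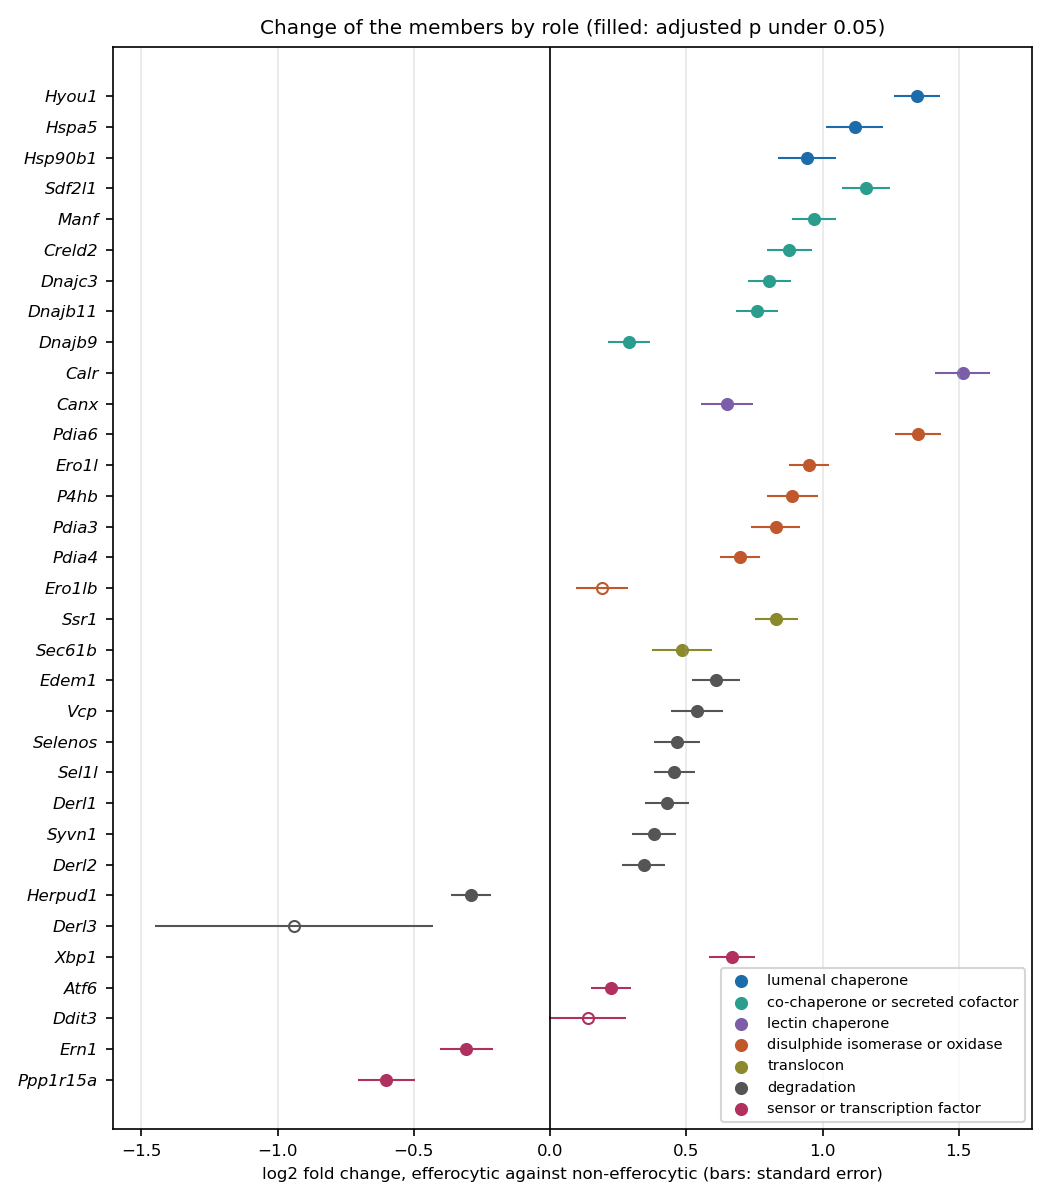
Log2 fold change of each member, efferocytic against non-efferocytic, with the standard error as a bar, coloured by role; filled points passed an edgeR adjusted p of 0.05 and open points did not. Folding genes other than Dnajb9 and Ero1lb lie between 0.65 (Canx) and 1.51 (Calr), degradation genes lower, and the sensors and transcription factors on both sides of 0.

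The 2 members at the translocon, the channel into the ER, both rose. Ssr1, a subunit of the translocon-associated TRAP complex, was at 55.1 and 64.1 CPM in the non-efferocytic and 90.7 and 106 CPM in the efferocytic libraries (log2 fold change 0.83 ± 0.0793, edgeR adjusted p = 0.000268). Sec61b, the β subunit of the channel, was at 385 and 409 CPM and at 529 and 502 CPM (0.48 ± 0.110, edgeR adjusted p = 0.0109), a call lost in 2 of 12 alternative settings with all libraries, among them cells of 10000 to 20000 UMIs (log2 fold change 0.30).

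The degradation members serve ER-associated degradation, in which proteins are recognised in the ER, moved out through a ubiquitin ligase complex and pulled into the cytosol. Of these 9, 7 rose, 1 fell and 1 passed in neither direction. Edem1, a lectin that hands misfolded glycoproteins on, was at 127 and 137 CPM in the non-efferocytic and 183 and 191 CPM in the efferocytic libraries (log2 fold change 0.61 ± 0.0892). Vcp, the ATPase that extracts the substrates, was at 182 and 179 CPM and at 224 and 264 CPM (0.54 ± 0.0955). Selenos, a selenoprotein that anchors VCP at the membrane, was at 114 and 124 CPM and at 146 and 159 CPM (0.47 ± 0.0855). No value of an efferocytic library fell within the non-efferocytic range for these genes, though in cells of 10000 to 20000 UMIs, where the groups are closer in depth, Selenos was at 0.28 (edgeR adjusted p = 0.0404). Sel1l and Syvn1 encode the adaptor and the ubiquitin ligase (HRD1) of the central complex. Sel1l was at 52.4 and 52.5 CPM and at 64.1 and 69.7 CPM (0.46 ± 0.0753), and Syvn1 at 22.2 and 20.3 CPM and at 27.5 and 23.9 CPM (0.38 ± 0.0819). The Derlins are membrane proteins of the same exit route. Derl1 was at 87.6 and 83.5 CPM and at 103 and 111 CPM (0.43 ± 0.0815). Derl2 was at 58.9 and 69.2 CPM and at 70.1 and 80.9 CPM (0.34 ± 0.0787), so that 1 efferocytic library exceeded the higher non-efferocytic one by less than 1 CPM. The call of Derl2 was lost in 4 of 12 alternative settings with all libraries, with a log2 fold change of 0.073 in cells of 10000 to 20000 UMIs, and that of Syvn1 in 2 of 12. Derl3 had 15 and 22 UMIs in the non-efferocytic and 14 and 7 in the efferocytic libraries, which is 0.148 and 0.159 CPM against 0.112 and 0.0451 CPM. At this depth its log2 fold change of -0.94 had an SE of 0.510 (edgeR adjusted p = 0.176).

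Herpud1 was the degradation gene that went the other way. It encodes HERP, a short-lived membrane protein that organises the ligase complex and is known as a target of the UPR. Herpud1 (ENSMUSG00000031770, chr8:94386438-94395377) was at 46.0 and 44.6 CPM in the non-efferocytic and 34.1 and 34.7 CPM in the efferocytic libraries. As a share of the RNA it fell in both experiments, with log2 ratios of CPM of -0.43 and -0.36. The fitted log2 fold change was -0.29 ± 0.0736 (edgeR adjusted p = 0.0168). Scaled to UMIs per cell it was 0.33 and passed in neither direction, with 0.562 and 0.460 UMIs per cell in non-efferocytic and 0.636 and 0.641 in efferocytic libraries. Its promoter, shown above, is that with the ERSE-II. DESeq2 did not call it.

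The sensors and transcription factors did not move as a group. Xbp1 rose, from 103 and 95.6 CPM in non-efferocytic to 142 and 150.1 CPM in efferocytic libraries (log2 fold change 0.67 ± 0.0849, edgeR adjusted p = 0.000932). Counts of 3′ tags do not tell its spliced from its unspliced mRNA. Atf6 was at 41.5 and 37.9 CPM and at 43.2 and 42.7 CPM (0.22 ± 0.0738, edgeR adjusted p = 0.0447). This call was lost in 6 of 12 alternative settings with all libraries, among them library totals (log2 fold change 0.12). Ern1 was at 9.41 and 11.9 CPM and at 7.02 and 9.02 CPM. It fell by 0.31 ± 0.0961 on the log2 scale (edgeR adjusted p = 0.0364), a call lost in 6 of 11 such settings. Its log2 fold change was -0.18 in cells of 10000 to 20000 UMIs and 0.31 when scaled to UMIs per cell. The experiments differed from each other by about as much as the groups did.

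Ddit3 and Ppp1r15a lie downstream of PERK: Ddit3 encodes CHOP, a transcription factor of prolonged ER stress, and Ppp1r15a encodes GADD34, which brings back translation. Ddit3 (ENSMUSG00000025408, chr10:127290774-127296288) was at 45.5 and 60.4 CPM in the non-efferocytic and 57.3 and 50.3 CPM in the efferocytic libraries. It was higher in the efferocytic library of Experiment 1 (log2 ratio 0.33) and lower in that of Experiment 2 (-0.26). Ddit3 passed in neither direction (0.14 ± 0.141, edgeR adjusted p = 0.462), while scaled to UMIs per cell it was called higher (0.76, edgeR adjusted p = 0.0084). That scaling called 49.9% of all genes tested higher, with a median log2 fold change of 0.60 over all of them. Whether the experiments differ was not tested, and a second annotated gene of the same name overlaps Ddit3. Ppp1r15a was at 47.1 and 26.0 CPM and at 24.4 and 18.9 CPM. Its fitted log2 fold change was -0.60 ± 0.105 (edgeR adjusted p = 0.0035), while scaled to UMIs per cell it was 0.02 (edgeR adjusted p = 0.957). The non-efferocytic library of Experiment 1 was far above the other three, and without it the log2 fold change was -0.15. Without the block the gene was not called (adjusted p = 0.187).

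**Figure D3:**
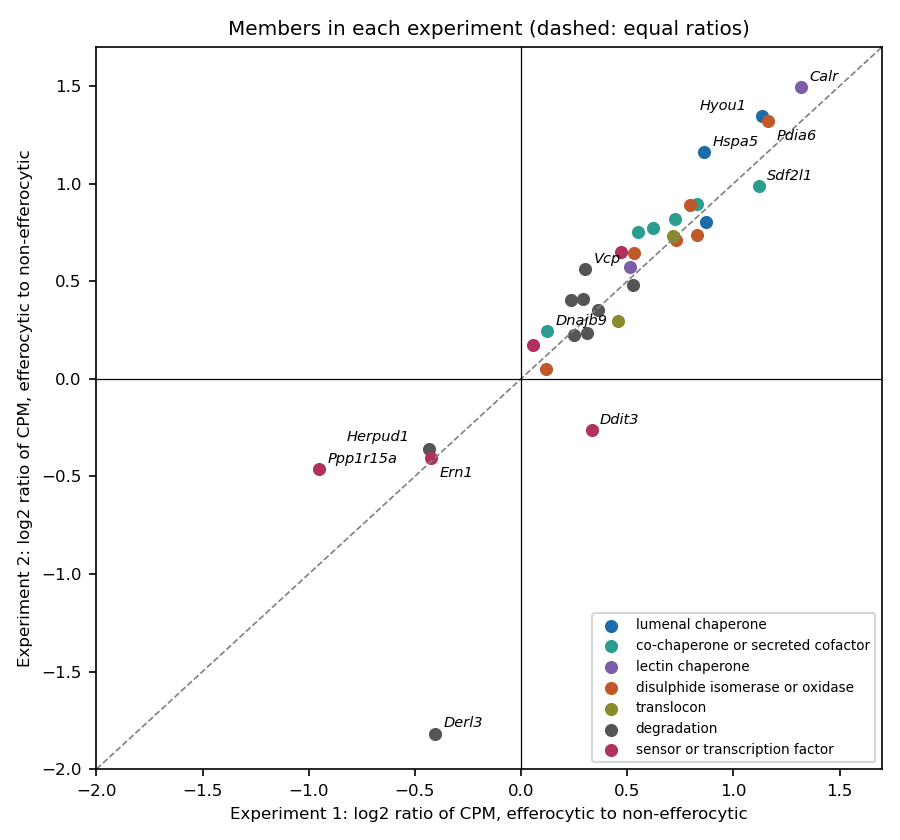
Log2 ratio of CPM, efferocytic to non-efferocytic, in Experiment 1 (horizontal) and Experiment 2 (vertical) for the 33 members, coloured by role, with equal ratios on the dashed line. Most members lie above 0 in both experiments and near the line, Ddit3 lies at 0.33 and -0.26, and Derl3, with 7 to 22 UMIs a library, at -0.40 and -1.82.

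Changes of members with and without an ERSE are set side by side here, with no test. Of the 10 with the letters, 8 rose, with a median log2 fold change of 0.84, and Ero1lb and Derl3 passed in neither direction. Of the 19 members with a promoter but no ERSE, 15 rose, with a median of 0.54. The sets also differ in role. All with an ERSE but Derl3 and Syvn1 are folding members, while those without include sensors and most degradation members. Folding members ran from 0.19 (Ero1lb) to 1.51 (Calr) with an ERSE and from 0.29 (Dnajb9) to 1.16 (Sdf2l1) without. Atf6, Derl1, Hyou1 and Manf, with no promoter searched, are in neither set, and role and ERSE were not separated. Among the 10 tested genes outside the members whose promoter held these letters, 4 were called higher and 0 lower, with a median of 0.26. The shorter element TGACGTGG, to which XBP1 and ATF6 bind occurred in Vcp alone among the members, which held no ERSE, and in 0.676% of promoters. The element TGATGNAA of ATF4 and CHOP targets occurred in Herpud1 alone among the members and in 3.97% of promoters.

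The distribution of the folding members over the cells of a library was shifted. Cells were thinned to 5000 UMIs each, which left out 1099 and 3404 non-efferocytic and 544 and 505 efferocytic cells with fewer. The 17 folding members then had a mean of 8.34 (SD across cells 4.67) and 8.07 (4.72) UMIs in non-efferocytic and 15.3 (7.88) and 15.4 (7.69) UMIs in efferocytic cells. The median was 7 UMIs in both non-efferocytic and 14 UMIs in both efferocytic libraries. The 10th percentile was 4 and 3 UMIs against 6 and 7 UMIs, and the 90th was 14 and 13 UMIs against 26 in both. Of efferocytic cells, 84.3% in Experiment 1 and 85.9% in Experiment 2 were above the non-efferocytic median of their experiment. By contrast, the 9 degradation members moved from means of 3.49 and 3.54 UMIs to 4.31 and 4.72 UMIs, and the 5 sensors and transcription factors from 1.28 and 1.17 UMIs to 1.47 and 1.43 UMIs. Barcodes of at most 100 UMIs, taken here as free RNA, also carried more of the folding members in the efferocytic libraries (2750 and 2572 CPM against 1917 and 1591 CPM). With 10% of each library's UMIs removed in their profile, 22 members were called higher and 2 lower by edgeR, and their median log2 fold change was 0.65. Of all genes tested, 9.98% were then called higher and 7.65% lower. How much free RNA the counts per cell held was not tested. Cells of a library share their culture and sort and are not replicates, so that no test was made on them. In the sums over a library, a larger share of cells with high levels and more RNA in each cell cannot be told apart, and these distributions describe both at once.

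**Figure D4:**
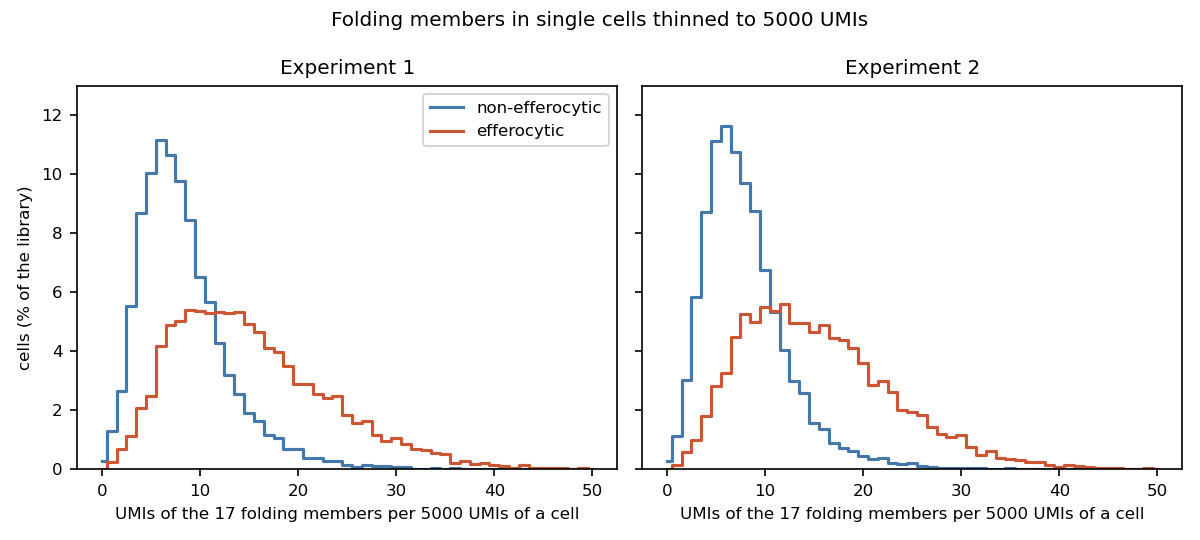
Share of cells (vertical, % of the library's thinned cells) by the number of UMIs of the 17 folding members among 5000 UMIs of a cell (horizontal, up to 50), for non-efferocytic (blue) and efferocytic (orange) cells of each experiment. The efferocytic distributions are wider and centred on 14 UMIs against 7 UMIs, with overlap between the groups.

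The rest of the pathway, and chaperones of the cytosol and mitochondria, were read from 9 lists, also chosen with earlier results known, that hold no member. All 9 lists give the pathway genes counted below. Of their 163 genes, 161 were tested. Of these, 86 rose and 10 fell, and the median log2 fold change was 0.30. The oligosaccharyltransferase, which attaches sugar chains to proteins entering the ER, had all 11 genes higher, with a median of 0.63. Its ribophorins Rpn1 (105.7 and 108.7 CPM in non-efferocytic, 211 and 215 CPM in efferocytic libraries, log2 fold change 1.10 ± 0.0885) and Rpn2 (0.84 ± 0.0823) and the subunit Magt1 (0.98 ± 0.0781) led it. Of 21 genes of transport from the ER to the Golgi, 16 rose and 1 fell, with a range from -1.39 to 0.76. The rises were led by the cargo receptors Surf4 (0.76 ± 0.0838), Lman1 (0.72 ± 0.0756) and its partner Mcfd2 (0.72 ± 0.0785). Of 23 genes of translocation and signal peptidase, 15 rose and 0 fell by edgeR, led by the peptidase subunits Spcs2 (0.88 ± 0.103) and Spcs3 (0.67 ± 0.0775) and the channel-associated Tram1 (0.71 ± 0.0840). Of 27 further folding factors, 15 rose and 1 fell, among them the prolyl isomerase Fkbp2 (0.91 ± 0.106), the calcium-binding Calu (0.71 ± 0.0744) and the thioredoxin-like Txndc5 (0.70 ± 0.0776). Against 19.9% higher and 19.0% lower over all genes tested, the shares called higher in these 4 lists were 100%, 76.2%, 65.2% and 55.6%. Among tested genes that averaged 10 CPM or more, 29.9% were called higher and 14.5% lower.

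In the degradation and signalling lists the share called higher was 30% for further degradation factors and 35.7% for other sensors and regulators. It was 20% for the PERK and ATF4 arm, against the same 19.9% over all genes tested. Among tested genes that averaged 10 CPM or more it was 29.9%, which is near the share of the degradation list. Of 20 further degradation factors, 6 rose, led by Edem3 (0.54 ± 0.0882), Edem2 (0.48 ± 0.0912) and Selenok (0.39 ± 0.116), and the median was 0.16. The call of Selenok was lost in 5 of 12 alternative settings with all libraries, among them cells of 10000 to 20000 UMIs (0.18). Of 14 other sensors and regulators, 5 rose, among them the ER-bound transcription factor Creb3 (0.39 ± 0.0736), the cell death suppressor Tmbim6 (0.34 ± 0.0972) and the protease Mbtps2 (0.32 ± 0.0874), which cuts ATF6, with a median of 0.14. Of those 12 settings, Tmbim6 and Mbtps2 lost their calls in 5 each and Creb3 in 1, cells of 10000 to 20000 UMIs (0.19). Of the 15 genes of the PERK and ATF4 arm, 3 rose and 5 fell, with a median of -0.11 and a range from -1.34 to 0.90. The genes at these ends averaged under 10 CPM or were not called, and are not named. Sesn2, a stress-induced inhibitor of mTORC1, was at 15.7 and 12.0 CPM in the non-efferocytic and 7.48 and 6.49 CPM in the efferocytic libraries and fell by 0.87 ± 0.0947 on the log2 scale (edgeR adjusted p = 0.000469), a call lost when scaled to UMIs per cell (-0.25, adjusted p = 0.42). Cebpb, a partner of CHOP, fell by 0.51 ± 0.111 on the log2 scale in the main fit, whereas scaled to UMIs per cell its log2 fold change was 0.11. Its call was also lost without the replicate block and with 10% of UMIs removed as free RNA. Eif2s1, which encodes the subunit of eIF2 that PERK phosphorylates, was at 0.41 ± 0.0806, a call lost without the replicate block (adjusted p = 0.143) and in cells of 10000 to 20000 UMIs (0.14). Phosphorylation is not read by these counts.

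Chaperones of other compartments rose as well in part, with 45% of the cytosolic and 60% of the mitochondrial list called higher. The share was 19.9% over all genes tested and 29.9% among those that averaged 10 CPM or more. Of 20 cytosolic heat shock genes, 9 rose and 3 fell, with a median of 0.24 and a range from -1.79 to 0.86. The rises were led by Hsp90aa1 (0.86 ± 0.0950) and its co-chaperones Ahsa1 (0.68 ± 0.0881) and Fkbp4 (0.51 ± 0.0862). Of 10 mitochondrial chaperones, 6 rose and 0 fell by edgeR, with a median of 0.38, led by the chaperonins Hspd1 (0.79 ± 0.103) and Hspe1 (0.63 ± 0.0973) and the HSP70 Hspa9 (0.60 ± 0.0821). Ahsa1 was at 0.40 in cells of 10000 to 20000 UMIs. Whether the lists differ from each other was not tested.

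**Figure D5:**
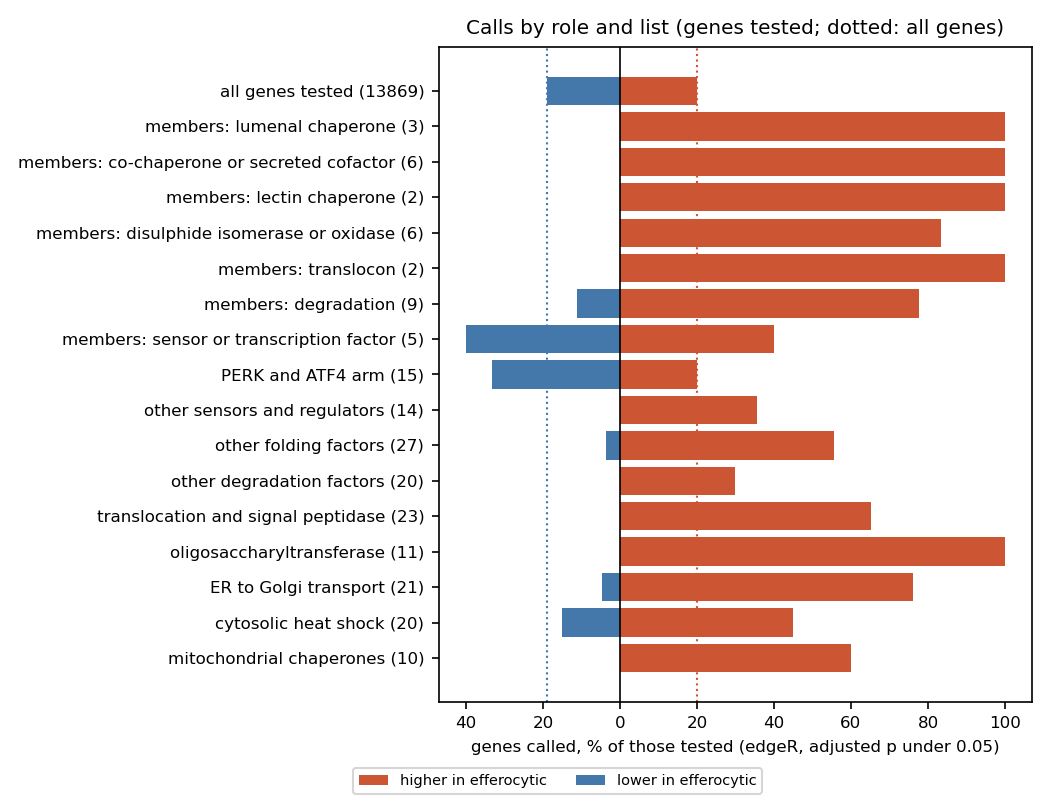
Share of the tested genes called higher (orange, to the right) or lower (blue, to the left) in efferocytic libraries by edgeR at an adjusted p of 0.05, for the members by role and for 9 further lists, with the number of genes tested in brackets and the shares over all 13869 genes as dotted lines at 19.9% and 19.0%. Folding and translocation members and the oligosaccharyltransferase reach or approach 100% higher, while the PERK and ATF4 arm has 20% higher and 33.3% lower.

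With either non-efferocytic library left out (and no block, as it would leave no residual degree of freedom) edgeR called almost no gene at an adjusted p of 0.05, 0 higher and 2 lower of 14207 genes without that of Experiment 1 and 0 of 14036 without that of Experiment 2, so that the 0 members called there says nothing of the members in particular. At an unadjusted p of 0.05, 25 and 24 members were higher and 1 and 2 lower, where 11.1% and 13.2% of all genes tested were higher and 9.99% and 11.7% lower, and the members' median log2 fold change was 0.72 without that of Experiment 1 and 0.62 without that of Experiment 2. Scaled to UMIs per cell, 29 members rose and 0 fell by edgeR, and 6921 of all genes were called higher and 586 lower, against 2761 and 2636 in CPM with TMM and 1847 and 3700 with library totals.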

How the data were processed

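UMI counts were measured in 4 libraries (10x 3′ kit), with both groups in each of 2 experiments. Mapping by the authors was to mm10, by Cell Ranger (3.0.0 in the methods and the headers of Experiment 1, 3.1.0 in those of Experiment 2), and the matrices deposited hold UMI counts as they came, neither normalized nor filtered on cells. Their integration and tests on cells were not repeated. Doublets were not called and stayed in.

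UMIs were summed per library over cells (at least 200 genes, at least 1000 UMIs, at most 10% mitochondrial UMIs). edgeR 4.0.16 in R 4.3.3 (quasi-likelihood test, TMM, filterByExpr) tested 13869 genes with the experiment as a block, since the study compared within experiments and the labels name them. The libraries of an experiment deviated together from their group means (correlation 0.786 over 7097 genes). p-values were adjusted by Benjamini-Hochberg over all genes tested, with a threshold of 0.05. SEs were computed from the fold change and the F statistic of the test. CPM are plain shares of a library's cell UMIs, so their ratios lie slightly under the fitted folds, which use TMM.

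The members and the lists were chosen with earlier results of these data known. All members are named, and of each pathway list the 3 called genes with the largest absolute change and a mean of at least 10 CPM. Hm13 and Mesdc2 matched no row. Coordinates of genes are those of GENCODE on GRCm38 (mm10), and promoters are from RefSeq. Alternatives were no block, DESeq2 1.42.0, library totals, UMIs per cell, no filter on genes, a mean of at least 10 CPM, a limit of 5% mitochondrial UMIs, cells of 5000 UMIs or more, 10% of UMIs taken away with the profile of barcodes of at most 100 UMIs, macrophage-marker cells, and each library left out. Cells of 10000 to 20000 UMIs, and the removal of barcodes shared within an experiment, were added after seeing the data.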

Additional observations from a re-analysis of the deposited data

Results flagged for a closer look

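Ddit3 moved in opposite directions in the 2 experiments, with a log2 ratio of efferocytic to non-efferocytic CPM of 0.33 in Experiment 1 and -0.26 in Experiment 2, and this difference was not tested. Barcodes of at most 100 UMIs, which were not used as cells, also carried the members: they took 4352 and 4195 CPM of these UMIs in the efferocytic libraries of Experiments 1 and 2, above the 3285 and 2895 CPM in the non-efferocytic ones. The log2 ratio was 0.41 and 0.54 in these barcodes and 0.65 and 0.69 in cells.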

How the results depend on the processing

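With all 4 libraries, 22 to 29 members were called higher under the 12 alternatives, which called 9.27% to 49.9% of all genes tested higher, and the median log2 fold change stayed above 0. It was 0.54 with library totals, 0.57 among genes of at least 10 CPM on average and 1.27 scaled to UMIs per cell. Members called lower numbered 1 without the replicate block, 1 by DESeq2 and 0 scaled to UMIs per cell. Of the pathway genes, 140 were then called higher and 2 lower, while 5 were lower without the block, 6 by DESeq2 and 4 with free RNA removed. Without the block, 23 members and 61 pathway genes were called higher, and 9.27% of all genes. Leaving out each library in turn gave 0 to 22 members higher, 0 lower (1 or 2 at an unadjusted p of 0.05), medians of 0.62 to 0.72, and 0 to 54 pathway genes higher and 0 to 5 lower. The counts of 0 higher came without either non-efferocytic library, where edgeR called 0 to 2 genes of 14036 or more in all. Without the efferocytic library of Experiment 1 or 2, 22 and 20 members and 54 and 33 pathway genes were higher, and 11.5% and 4.44% of all genes.

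Scaled to UMIs per cell, the log2 fold change turned to 0.33 for Herpud1, 0.31 for Ern1, 0.018 for Ppp1r15a and 0.11 for Cebpb; this scaling moves the median of all genes to 0.60, and library totals to -0.12. Ddit3 was at -0.053 without the non-efferocytic library of Experiment 1 and at -0.0002004 without the efferocytic one. Leaving out 1 library moved these other calls by over 1.5 times: without the efferocytic library of Experiment 1, Syvn1 was at 0.25, Ern1 at -0.17 and Eif2s1 at 0.62, without that of Experiment 2 Eif2s1 was at 0.19 and Cebpb at -0.29, and without the non-efferocytic library of Experiment 1 Ern1 was at -0.47, without that of Experiment 2 Ern1 was at -0.12 and Ppp1r15a at -1.003. For the other calls that were lost the cause was not tested. Derl3 held only 7 to 22 UMIs a library. It did not pass the filter under 3 alternatives with all libraries, and Ern1 under 1, and DESeq2 gave Derl3 no adjusted p.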
